A study of Mus musculus with 22 samples.

Results

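The genes described here encode the subunits of oxidative phosphorylation, the 5 protein complexes of the inner mitochondrial membrane that carry electrons from nutrients to oxygen and make ATP. They were taken by name: every gene whose symbol in the bead array files starts with Nduf, Uqcr, Atp5, Cox4, Cox5, Cox6, Cox7 or Cox8, together with Sdha, Sdhb, Sdhc and Sdhd. On the MouseRef-8 arrays this gave 77 of 17969 listed genes (95 of 25697 probes), and on the MouseWG-6 arrays 81 of 30520 (119 of 45281 probes). A probe counted as measured when its detection p-value, which sets its signal against that of control beads without a target, was below 0.01 on at least 2 arrays. On MouseRef-8 69 genes passed and 8 did not, and on MouseWG-6 72 passed and 9 did not.

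Complex I (NADH dehydrogenase, the Nduf genes) and complex II (succinate dehydrogenase, the Sdh genes) pass electrons to ubiquinone. Complex III (the Uqcr genes) hands them to cytochrome c, and complex IV (cytochrome c oxidase, the Cox genes) passes them to oxygen. Complexes I, III and IV pump protons, and complex V (ATP synthase, the Atp5 genes) uses the gradient to make ATP. Mouse embryonic stem cells in naive culture are known to respire as well as to ferment glucose, whereas the primed cells of the later epiblast rely more on glycolysis. A handful of subunits are encoded in mitochondrial DNA and carry none of these gene names, so they were not analysed here.

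The study grew 4 mouse embryonic stem cell lines in serum-free N2B27 medium with LIF (leukaemia inhibitory factor) and small-molecule kinase inhibitors. PD (PD0325901) blocks MEK, SB (SB431542) blocks the type I receptors of the TGF-beta and Activin branch, and CHIR (CHIR99021) blocks GSK3. B18 and B20, both of strain C57BL/6, came from blastocysts placed in PD and SB, the medium called R2i, and were kept there for more than 10 passages before other dishes spent 10 passages in PD or in 2i (PD and CHIR). Comparisons with R2i in B18 and B20 thus set the medium of derivation against dishes moved out of it, so medium and move cannot be told apart. Each of these lines gave 3 R2i, 3 PD and 2 2i arrays, 16 in all, on MouseRef-8. B4 (C57BL/6) and C17 (BALB/c) gave 1 R2i, 1 PD and 1 SB array each, 6 in all, on MouseWG-6, and their derivation is not given in the sources used here. All groups thus shared the basal medium and LIF and each held PD except SB alone. No other line of the same strain shared a chip with any of them, so strain and line cannot be told apart in C17 against B4.

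Between 42.1% and 45.4% of probes were detected on a MouseRef-8 array and between 30.0% and 31.7% on a MouseWG-6 array. All 9 embryonic stem cell markers (among them Pou5f1, Sox2 and Nanog) passed the detection filter in both sets, and none of 5 neural markers did in B18 and B20 (only Nes did in B4 and C17). Of 10 feeder fibroblast markers Thy1 and Vim passed in B18 and B20, while Col1a1, Col1a2, Col3a1, Dcn, Lum, Postn, S100a4 and Acta2 did not. B18 and B20 each sat on a chip of their own, so line and chip cannot be told apart, and each medium took the same array positions, so medium and position cannot be told apart. B4 and C17 shared a chip, with all B4 arrays at positions A to C and all C17 arrays at positions D to F. Line and position cannot be told apart there. Leaving out the third B20 PD array raised the share of all genes whose R2i minus PD change differed between the lines from 4.27% to 8.34%, and calls of named genes that change without this array are given with both values. For the C17 arrays in PD and in SB a label field names B4, against their titles, sources and strain, which were followed. The arrays measured whole cultures, so fewer cells that express a gene and less RNA in each cell cannot be told apart.

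Before the values, the sequences upstream of the 4 genes that were lower by the largest amounts in R2i than in 2i are shown. Each is the 250 bases before the transcription start in RefSeq's mouse annotation of GRCm38.p6, written 5′ to 3′ on the gene's strand, which is the minus strand for all 4. Capitals mark CTTCCGG, the reverse of CCGGAAG, the core recognised by ETS factors such as GABP (NRF2), which is known as a regulator of respiratory chain genes. Uqcrh lies at chr4:116075071-116075320, Cox7a2 at chr9:79759854-79760103, Cox6b1 at chr7:30626115-30626364 and Sdhd at chr9:50603850-50604099.
Uqcrh: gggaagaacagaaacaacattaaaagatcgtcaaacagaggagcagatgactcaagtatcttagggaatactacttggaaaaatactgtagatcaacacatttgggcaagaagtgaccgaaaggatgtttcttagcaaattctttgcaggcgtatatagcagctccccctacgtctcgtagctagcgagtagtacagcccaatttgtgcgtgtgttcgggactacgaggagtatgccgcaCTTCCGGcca
Cox7a2: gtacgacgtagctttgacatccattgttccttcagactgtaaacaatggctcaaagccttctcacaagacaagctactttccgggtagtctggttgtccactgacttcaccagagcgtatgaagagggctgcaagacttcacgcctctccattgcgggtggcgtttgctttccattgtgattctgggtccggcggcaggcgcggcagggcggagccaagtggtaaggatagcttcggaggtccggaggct
Cox6b1: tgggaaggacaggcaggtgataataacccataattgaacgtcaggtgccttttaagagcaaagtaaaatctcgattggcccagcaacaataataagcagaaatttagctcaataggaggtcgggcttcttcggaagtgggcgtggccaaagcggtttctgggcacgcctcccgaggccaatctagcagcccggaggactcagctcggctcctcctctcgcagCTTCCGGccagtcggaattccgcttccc
Sdhd: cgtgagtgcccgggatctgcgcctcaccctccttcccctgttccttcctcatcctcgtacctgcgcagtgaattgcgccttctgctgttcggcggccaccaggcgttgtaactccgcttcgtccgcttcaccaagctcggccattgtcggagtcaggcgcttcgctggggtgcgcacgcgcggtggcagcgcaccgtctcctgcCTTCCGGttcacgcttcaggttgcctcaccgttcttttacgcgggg
The core was found in Uqcrh, Cox6b1 and Sdhd and its letters were not in the Cox7a2 window. It was also in genes that did not pass in R2i against 2i, among them Ndufb6, Atp5h and Cox6a1. It was not in Ndufa4, Atp5o and Atp5f1, which were lower there. A link of the core to the medium was not tested. A window was at hand for 62 of the 73 genes that passed in either set, and 13 of them (21.0%) held CCGGAAG or its reverse, against 16.6% of the 7128 genes with a window that were tested in B18 and B20 and 7.83% of all 27025 genes with a window. The NRF1 core GCGCATGC (reverse GCATGCGC) was in 8 (12.9%), against 5.44% and 2.56%. The YY1 core AAGATGG (reverse CCATCTT) was in 2 (3.23%), against 5.49% and 5.18%. For these shares the same 250 bases before each start were searched, 6 of the genes had 2 starts, and a gene counted when either window held the core. Both strands were searched, matches of different motifs were allowed to overlap, and a match describes the letters only.

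Oxidative phosphorylation genes were among the brightest on every array. In B18 and B20 between 75.4% and 78.3% of the 69 measured genes lay in the brightest 25% of all genes tested, and in B4 and C17 between 77.8% and 83.3% of the 72. Their median spread between arrays was also smaller than that of all genes, with a standard deviation of 0.155 against 0.202 on the log2 scale in B18 and B20 and 0.159 against 0.229 in B4 and C17. The 69 genes comprised 32 of complex I, 3 of complex II, 4 of complex III, 12 of complex IV (Ndufa4 included, which is now counted there), 13 of complex V, the assembly factor Ndufaf1 and 4 genes whose names match but whose products are not subunits. These 4 are Cox4nb (now Emc8, of the endoplasmic reticulum membrane complex), Atp5s and Atp5sl (now Dmac2l and Dmac2, the latter an assembly factor of complex I) and Cox7a2l. Cox7a2l is known as a factor of supercomplexes of complexes III and IV, and its function in these lines was not measured. In B4 and C17 the corresponding numbers were 33, 3, 5, 11 and 14, with the assembly factors Ndufaf1 and Ndufa12l (now Ndufaf2) and the same 4 others.

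Of the isoforms known from specialised tissues some were at background and others were well detected. Cox7a1 (heart and muscle) and Cox6b2 (testis) were detected on 16 of 16 B18 and B20 arrays, at mean log2 signals of 8.41 and 9.80, and on 6 of 6 B4 and C17 arrays, at 9.15 and 9.21. Cox4i2 (the lung isoform of subunit 4), Cox7b2, Cox8b (heart and muscle) and Cox8c (testis) did not pass in either set, and Cox6a2 (heart and muscle) passed in B18 and B20, on 9 of 16 arrays, but not in B4 and C17. Ndufs1 and Uqcrfs1, core subunits of complexes I and III, and Uqcrq did not pass in either set with the probes used, although these proteins are parts of the complexes in every respiring cell. Uqcrfs1 was detected on 1 of 16 B18 and B20 arrays. Atp5k did not pass in B18 and B20, and neither of the Sdha probes passed in B4 and C17. Cox8a, Atp5g1 and Ndufa4l2 were not analysed here in either set, nor was Sdha in B18 and B20.

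**Figure D1:**
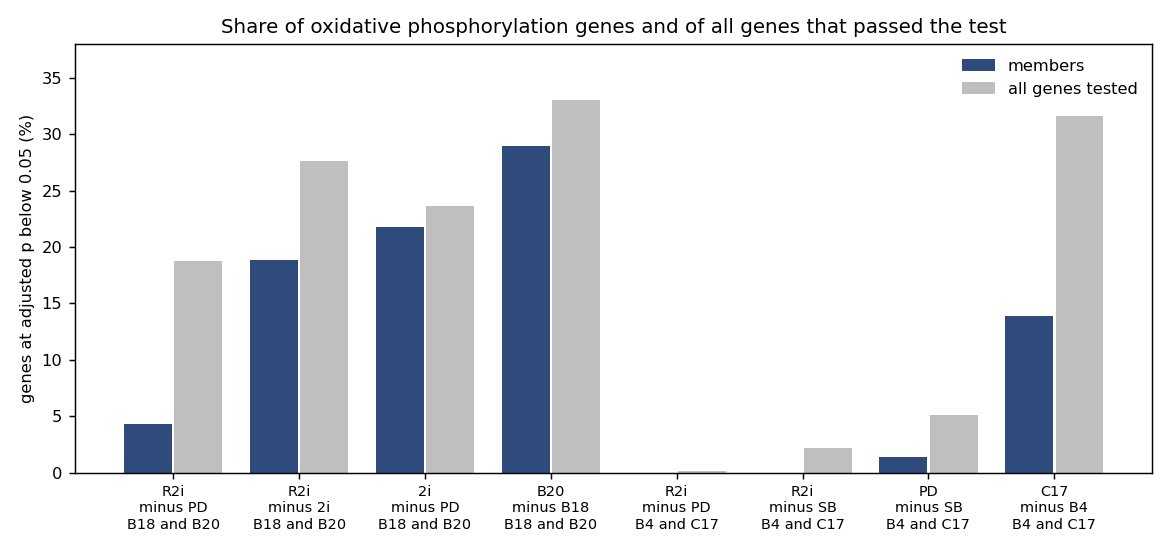
Share of the measured oxidative phosphorylation genes (dark bars, 69 or 72 genes) and of all genes tested (grey bars, 9194 or 10903 genes) with an adjusted p below 0.05 in each of 8 comparisons, in percent. The dark bar is lower than the grey bar in all 8, from 4.35% against 18.8% for R2i minus PD to 29.0% against 33% for B20 minus B18, and no gene of the group passed in 2 of the comparisons in B4 and C17.

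Between R2i, which holds SB beside PD, and PD alone, nearly all subunit transcripts of B18 and B20 stayed within a narrow range. The PD dishes had been taken out of R2i, so this compares loss of SB after a move, not its addition. In R2i against PD 2 of 69 genes were higher and 1 was lower at an adjusted p below 0.05 (limma, Benjamini-Hochberg over 9194 genes), which is 4.35% against 18.8% of all genes (9.25% higher and 9.56% lower). The median log2 change of the 69 genes was -0.02, against 0.01 for all genes, and 97.1% of them changed by less than 0.25, against 82.1% of all genes. Without background correction 6 of the 69 passed. Of 68 oxidative phosphorylation genes measured in both array sets, which share no arrays, 45 (66.2%) had R2i minus PD changes of the same sign, against 58.1% of 8030 genes.

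Cox7a2, the widely expressed isoform of subunit 7a of complex IV, was the gene that fell. In B18 its log2 signal was 7.80, 8.07 and 7.90 on the R2i arrays, 8.38, 8.48 and 8.53 on the PD arrays and 8.21 and 8.46 on the 2i arrays. In B20 it was 7.98, 8.06 and 8.30 in R2i, 8.21, 8.23 and 8.24 in PD and 8.64 and 8.35 in 2i. R2i and PD did not overlap in B18, whereas in B20 the third R2i array lay above all 3 PD arrays. The R2i minus PD change was -0.33 ± 0.08 (SE, adjusted p = 0.0062) over both lines. It was -0.54 in B18 (adjusted p = 0.0026) and -0.12 in B20 (adjusted p = 0.566), and the difference between the lines did not pass (0.43, adjusted p = 0.137).

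Ndufa12, an accessory subunit of complex I, was higher in R2i than in PD by 0.24 ± 0.07 (adjusted p = 0.0179). Its signal was 9.93, 9.93 and 9.81 in R2i and 9.77, 9.52 and 9.57 in PD in B18, and 9.95, 9.87 and 10.07 against 9.84, 9.71 and 9.75 in B20. The media did not overlap within either line. Without the second B18 PD array the call was lost (adjusted p = 0.0521). The other gene counted as higher was Cox6a2, the heart and muscle isoform of subunit 6a (adjusted p = 0.00981), which has only a bound in B18 and passed the filter through the groups where it is higher. It was detected on 2 of 3 R2i arrays and on no PD or 2i array of B18, and on all R2i and PD arrays and 1 of 2 2i arrays of B20. In B18 the measured means were 5.15 in R2i and 4.50 in PD, and the bound for PD, 5.20, lay above the R2i mean, so no fold is given. In B20, where both media were detected, R2i minus PD was 0.28 and did not pass (adjusted p = 0.33), so Ndufa12 is the 1 rise that rests on measured levels in both lines.

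By complex, complex I had 1 gene that rose and a median of -0.03 in R2i minus PD, and complex V had none and a median of 0.02. Complex II had no call, and its 3 measured genes were all below 0, with a median of -0.15. Sdhb, the iron-sulfur subunit, changed by -0.15 ± 0.09 (adjusted p = 0.28), Sdhc by -0.08 (adjusted p = 0.433) and Sdhd by -0.20 (adjusted p = 0.0543). Within single lines 5 genes passed in B18, 1 higher and 4 lower (Cox7a2, Sdhd, Uqcrh and Ndufb5), against 15.1% of all genes. The higher gene was Cox6a2, which was not detected on any B18 PD array. In B20 none passed, against 9.27% of all genes, and 6 of the 69 were at an unadjusted p below 0.05. The share of all genes at that unadjusted level is not given, here or at later counts of this kind. Such counts are not read as an excess.

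R2i and 2i differ in the partner of PD, SB or CHIR, and 13 genes passed between them. In R2i against 2i 4 of 69 genes were higher and 9 lower, or 18.8%, against 27.6% of all genes (14.2% higher and 13.4% lower). The values of 50 genes were below 0, with a median of -0.09 against 0.01 for all genes. The share of all genes below 0 is not given, and signs of genes read on the same arrays are not independent. The 4 higher genes include Cox6a2, which was not detected on the B18 2i arrays. The 9 lower genes belonged to complexes II (Sdhc, Sdhd), III (Uqcrh, Uqcrc2), IV (Cox7a2, Cox6b1, Ndufa4) and V (Atp5o, Atp5f1). No gene of complex I passed over both lines, although 24 of its 32 genes were below 0, with a median of -0.09, and 4 were at an unadjusted p below 0.05.

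Uqcrh, the hinge protein of complex III that aids electron transfer to cytochrome c, had the largest fall. In B18 its log2 signal was 11.36, 11.43 and 11.38 in R2i, 11.71, 11.71 and 11.76 in PD and 11.96 and 12.10 in 2i. In B20 it was 11.32, 11.50 and 11.83 in R2i, 11.53, 11.63 and 11.44 in PD and 12.03 and 12.08 in 2i. The 4 2i arrays lay above all 12 others. R2i was lower than 2i by 0.58 ± 0.09 on the log2 scale (1.49-fold, adjusted p = 8.44e-05), and the change was -0.64 in B18 (adjusted p = 0.00123) and -0.51 in B20 (adjusted p = 0.00856). In 2i minus PD, which shares the 2i arrays, Uqcrh was 0.42 ± 0.09 higher (adjusted p = 0.00196).

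Cox6b1, subunit 6b of complex IV, was 0.34 ± 0.07 lower in R2i than in 2i (adjusted p = 0.00164). Its B18 signal was 11.38, 11.54 and 11.50 in R2i, 11.58, 11.60 and 11.65 in PD and 11.96 and 11.96 in 2i, and its B20 signal was 11.53, 11.72 and 11.85, then 11.62, 11.63 and 11.56, then 11.96 and 11.85. The 2i arrays were above every PD array in both lines, while in B20 the third R2i array reached the lower 2i array. Both probes of the gene gave nearly the same R2i minus 2i change, -0.34 and -0.36. The change was -0.49 in B18 (adjusted p = 0.00278) and -0.20 in B20 (adjusted p = 0.195), with a difference between lines of 0.28 that did not pass (adjusted p = 0.393). For Cox7a2, whose array values are given above, R2i lay 0.40 ± 0.09 below 2i (adjusted p = 0.00243), with no overlap between R2i and 2i within either line.

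In complex II the membrane anchor subunits moved and the iron-sulfur subunit did not pass. Sdhd fell by 0.31 ± 0.08 on the log2 scale in R2i against 2i (adjusted p = 0.00716). Its B18 signal was 8.44, 8.40 and 8.45 in R2i, 8.84, 8.55 and 8.92 in PD and 8.89 and 9.11 in 2i, with R2i below all others. In B20 it was 8.41, 8.45 and 8.51 in R2i, 8.50, 8.49 and 8.57 in PD and 8.42 and 8.59 in 2i, with all media overlapping. The change was -0.57 in B18 (adjusted p = 0.0017) and -0.05 in B20 (adjusted p = 0.815), and the difference of 0.52 ± 0.16 did not pass (adjusted p = 0.117). The call over both lines was lost without the second B18 2i array (-0.25, adjusted p = 0.0501).

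Sdhc fell by 0.29 ± 0.07 (adjusted p = 0.00465). It was at 10.11, 10.30 and 10.12 in R2i, 10.28, 10.25 and 10.40 in PD and 10.48 and 10.53 in 2i in B18, and at 10.21, 10.09 and 9.99, then 10.14, 10.11 and 10.10, then 10.32 and 10.36 in B20. The 2i arrays were the highest within each line. Sdhb was at 9.51, 9.73 and 9.55 in R2i and 9.53 and 9.55 in 2i in B18, and at 9.72, 9.20 and 9.29 against 9.50 and 9.14 in B20, so the media overlapped in both lines (0.07 ± 0.10, adjusted p = 0.652).

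**Figure D2:**
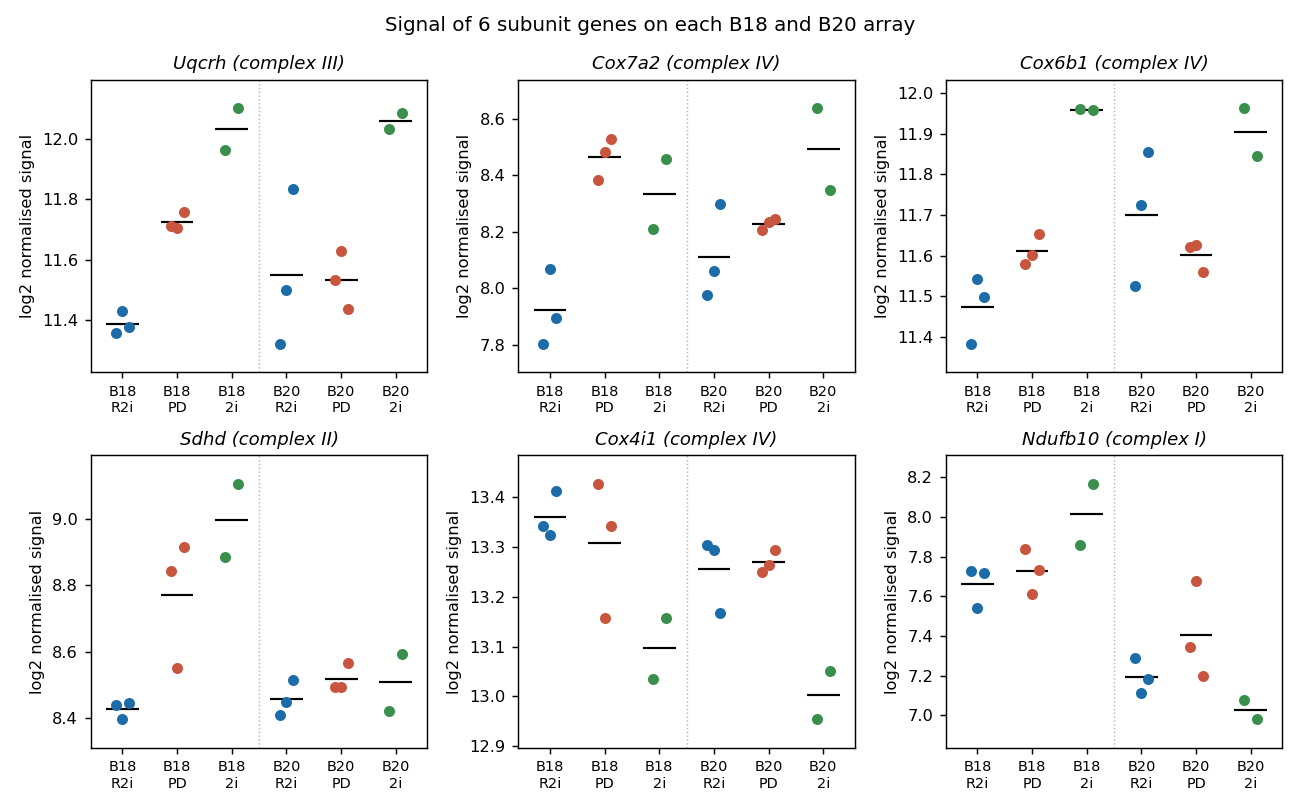
Log2 normalised signal (vertical axis, its own range in each panel) of 6 genes on the 16 B18 and B20 arrays. Each point is an array, each bar a group mean, and colour marks the medium; Uqcrh is highest on the 4 2i arrays of both lines, R2i lies below the other media for Sdhd in B18 while all media overlap in B20, and the Ndufb10 arrays of B20 lie below those of B18 except for 1 PD array.

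Against this direction, Cox4i1 and 3 other genes were higher in R2i than in 2i. Cox4i1 is the main isoform of subunit 4 of complex IV, and Cox4nb is its neighbour on chromosome 8. Cox4i1 was at 13.34, 13.32 and 13.41 in R2i, 13.43, 13.16 and 13.34 in PD and 13.04 and 13.16 in 2i in B18, and at 13.30, 13.29 and 13.17, then 13.25, 13.26 and 13.29, then 12.95 and 13.05 in B20. The 2i arrays were the lowest, with 1 B18 2i array level with 1 B18 PD array. R2i was higher than 2i by 0.26 ± 0.07 (adjusted p = 0.00962), and this call was lost with median scaling of the arrays (adjusted p = 0.291).

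Cox4nb was higher in R2i by 0.35 ± 0.07 (adjusted p = 0.00116). It was at 9.45, 9.40 and 9.51 in R2i, 9.65, 9.43 and 9.61 in PD and 8.84 and 9.11 in 2i in B18, and at 9.34, 9.34 and 9.37, then 9.44, 9.47 and 9.55, then 9.11 and 9.14 in B20. No 2i array of either line reached an R2i or PD array, and its second probe gave 0.36. Atp5sl was higher by 0.30 (adjusted p = 0.00655), with R2i between 8.30 and 8.58 and the 2i arrays at 8.15, 8.27, 8.19 and 7.91. Cox6a2 also passed (adjusted p = 0.00167), but it was detected on neither B18 2i array and on 1 of 2 B20 2i arrays. Its measured B18 means were 5.15 in R2i and 4.38 in 2i, and the bound for 2i, 5.18, lay above the R2i mean, so no fold is given.

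The remaining 4 lower genes changed by less. Atp5o, the stalk subunit of ATP synthase that confers oligomycin sensitivity, changed by -0.27 (adjusted p = 0.0132) and Uqcrc2, a core protein of complex III, by -0.25 (adjusted p = 0.0415). The Uqcrc2 call was lost with median scaling, without the detection filter and without any 1 of 9 of the 16 arrays, and without the second B20 2i array the change was -0.13 (adjusted p = 0.245). Ndufa4 changed by -0.23 (adjusted p = 0.0499) and Atp5f1, a stalk subunit of ATP synthase, by -0.19 (adjusted p = 0.0497), both at the edge of the threshold and each lost without any 1 of 12 arrays. Taken line by line, 2 genes were higher and 6 lower in B18, against 18% of all genes called, and 1 was higher and 2 lower in B20, against 15.3%. The 2 higher in B18 were Cox4nb and Cox6a2, the latter not detected on any B18 2i array. The 6 lower in B18 include Ndufb7 of complex I (-0.37, adjusted p = 0.0428). In B20 the mean of Ndufb7 was 7.44 in R2i and 7.22 in 2i, the other direction. The isoforms Cox6a1 and Cox6b2 and the subunit Cox6c changed by -0.01, -0.02 and -0.02, and Cox7b by -0.30 (adjusted p = 0.0868).

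**Figure D3:**
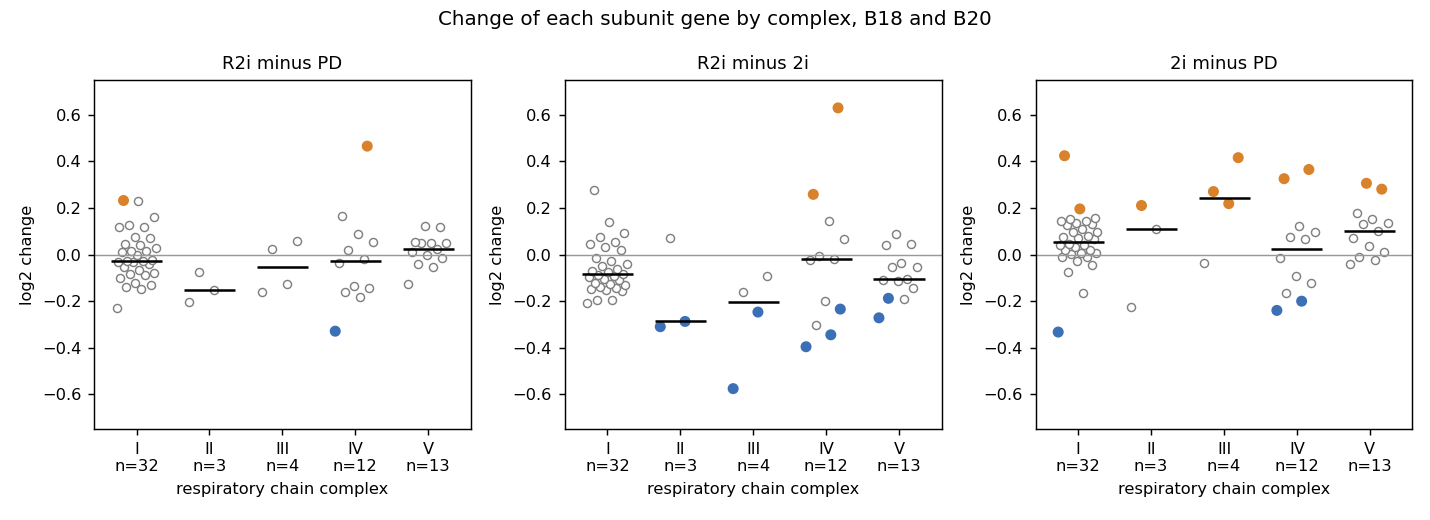
Log2 change of each measured subunit gene (vertical axis) by complex (horizontal axis, number of genes below) for the 3 medium comparisons in B18 and B20. Filled points passed at an adjusted p below 0.05 (orange higher, blue lower), open points did not, and bars are medians; the medians of complexes II and III lie at -0.29 and -0.20 in R2i minus 2i, and complex I has no filled point there.

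The third medium comparison asks what CHIR adds to PD, and it shares its arrays with the other comparisons in B18 and B20. In 2i against PD 10 of 69 genes were higher and 5 lower, or 21.7%, against 23.6% of all genes (11.4% higher and 12.2% lower), which is near the background. The values of 48 genes were above 0, and the median was 0.07 against -0.01 for all genes. The share of all genes above 0 is not given here either. With median scaling 7 were higher and 2 lower.

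Complex III had 3 of its 4 measured genes higher in 2i than in PD, with a median of 0.24. Besides Uqcrh these were Uqcrc2 (0.27 ± 0.09, adjusted p = 0.0303) and Uqcrc1, the other core protein (0.22 ± 0.07, adjusted p = 0.0316). Both of these calls were fragile, whereas that of Uqcrh held under all 24 alternatives. The Uqcrc2 call was lost with median scaling (adjusted p = 0.0544) and without any 1 of 5 arrays, and without the second B20 2i array the change was 0.16 (adjusted p = 0.181). The Uqcrc1 call was lost without any 1 of 6 arrays, among them the third B20 PD array (0.19, adjusted p = 0.0564). Uqcrc2 was at 11.74, 11.75 and 11.76 in PD and 11.99 and 12.29 in 2i in B18, and at 11.84, 11.92 and 11.92 against 11.81 and 12.27 in B20. The groups were apart in B18, and in B20 1 2i array lay below all PD arrays.

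Among complex I genes Ndufb11, an accessory subunit of the membrane arm, was 0.42 ± 0.12 higher in 2i (adjusted p = 0.0201). It was at 6.18, 5.91 and 6.07 in PD and 6.68 and 6.63 in 2i in B18, and at 6.24, 6.13 and 6.07 against 6.64 and 6.13 in B20, so 1 B20 2i array fell within the PD range. Its dimmer probe changed by 0.06. The call was lost without the first B18 2i array (adjusted p = 0.0574) or the first B20 2i array (0.30, adjusted p = 0.129), and without background correction the change was 0.21. Ndufs8, an iron-sulfur subunit, rose by 0.20 (adjusted p = 0.0326), a call lost with median scaling and without any 1 of 7 arrays. Ndufab1, the mitochondrial acyl carrier protein, was lower in 2i (adjusted p = 0.0245) close to background. It was detected on all PD arrays, on neither B18 2i array and on 1 of 2 B20 2i arrays, and its B18 signal was at least 1.06-fold higher in PD than in 2i (measured means 5.27 and 5.01). This call was lost without background correction (adjusted p = 0.101), with median scaling (adjusted p = 0.129) and without the first B18 2i, the first B20 PD or the first B20 2i array (adjusted p = 0.134, 0.0563 and 0.138).

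In complex IV Cox7a1, the heart and muscle isoform of subunit 7a, rose by 0.36 ± 0.12 (adjusted p = 0.0376) and Cox6b1 by 0.33 ± 0.07 (adjusted p = 0.00314). Cox7a1 was at 8.37, 8.17 and 8.11 in PD and 8.58 and 8.85 in 2i in B18, and at 8.13, 8.66 and 8.10 against 8.59 and 8.47 in B20, where the second PD array lay above both 2i arrays. The Cox7a1 call was lost without the detection filter and without any 1 of 7 arrays, among them the third B20 PD array (0.32, adjusted p = 0.0758). Cox4i1 fell by 0.24 (adjusted p = 0.0173, or 0.189 with median scaling), a call also lost without the first 2i array of B18 or of B20 (adjusted p = 0.074 and 0.0663). Cox5a, a subunit of the same complex, fell by 0.20 (adjusted p = 0.0375, or 0.129 with median scaling and 0.0772 with the replicate block). It was lost without any 1 of 7 arrays, at an adjusted p of 0.0505 without the third B20 PD array and 0.173 without the second B20 2i array. In complex V Atp5f1 rose by 0.31 (adjusted p = 0.00368) and Atp5o by 0.28 (adjusted p = 0.0126), and in complex II Sdhc rose by 0.21 (adjusted p = 0.0326), a call lost with median scaling, with the replicate block and without any 1 of 7 arrays. Outside the complexes Cox4nb fell by 0.48 ± 0.07 (adjusted p = 0.000106) and Atp5sl by 0.34 (adjusted p = 0.00368). Within B18 6 genes were higher and 1 lower, against 15.9% of all genes called, and within B20 1 was higher and 2 lower, against 13.8%.

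Over the 3 medium comparisons together 20 of 69 genes (29.0%) passed at least once, against 41.3% of all genes. The genes called in both comparisons with 2i were Atp5f1, Atp5o, Atp5sl, Cox4i1, Cox4nb, Cox6b1, Sdhc, Uqcrc2 and Uqcrh. Their adjusted p in R2i minus PD ran from 0.165 for Uqcrh to 0.950 for Atp5o. The comparisons with 2i share the same 2i arrays, and the share of all genes called in both is not given. The genes are therefore listed without a test and are not read as a set particular to 2i. Summed signals of markers of other cell types were apart between some media and overlapped between others, and no test was run on them. The summed signal of the 5 primitive endoderm markers that passed (Col4a1, Dab2, Gata6, Lama1 and Sox7, of a list of 9) was 612 to 847 in R2i, 949 to 1248 in PD and 446 to 617 in 2i. PD lay above both other media, which overlapped. Foxa2, Gata4, Pdgfra and Sox17 did not pass. The 5 of 8 trophoblast markers that passed summed to 2935 to 3585, 1885 to 3180 and 2325 to 2752, without Cdx2, Elf5 and Hand1. There R2i lay above 2i, and PD overlapped both. Thy1 and Vim summed to 239 to 392, 277 to 396 and 225 to 326, so the media overlapped, and the 9 stem cell markers to 37672 to 45451, 50936 to 54513 and 48342 to 50409. The part of these cells in the results was not tested.

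B20 and B18 differed in 20 of the 69 genes. In B20 against B18, averaged over the 3 media, 7 of 69 genes were higher and 13 lower, or 29.0%, against 33% of all genes (15.8% higher and 17.3% lower). The median was -0.01, and with median scaling the split was 10 higher and 8 lower. Complex V had 5 lower genes and 1 higher, complex I 4 and 4, complexes II and III 2 lower each, and complex IV 2 higher.

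Ndufb10, an accessory subunit of the complex I membrane arm, was 0.59 ± 0.07 lower in B20 (1.51-fold, adjusted p = 4.69e-05). In B18 it was at 7.73, 7.54 and 7.72 in R2i, 7.84, 7.61 and 7.73 in PD and 7.86 and 8.17 in 2i. In B20 it was at 7.29, 7.11 and 7.18, then 7.34, 7.68 and 7.20, then 7.08 and 6.98. The lines were apart in R2i and 2i, and in PD the second B20 array reached the B18 range. B20 minus B18 was -0.47 in R2i (adjusted p = 0.0134), -0.32 in PD (adjusted p = 0.0807) and -0.98 in 2i (adjusted p = 0.00291). The change in this difference from PD to 2i was -0.66 ± 0.19 (adjusted p = 0.0857), and without the third B20 PD array it was -0.77 (adjusted p = 0.0276).

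Ndufb2, another membrane arm subunit, was 0.39 lower in B20 (adjusted p = 0.000619). Its signal was 7.98 to 8.42 over the 8 B18 arrays, and 7.52 to 8.03 over the 8 B20 arrays, so the lines overlapped in PD only. Atp5d, the delta subunit of the ATP synthase central stalk, was 0.36 lower (adjusted p = 0.00113), at 9.92 to 10.19 in B18 and 9.50 to 9.95 in B20, where the third PD array was the highest. Uqcrc1 and Atp5h, a stalk subunit, were lower by 0.26 (adjusted p = 0.0025) and 0.25 (adjusted p = 0.00568).

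In the other direction, Cox6a2 was among the 7 genes higher in B20 (adjusted p = 0.000129), but in B18 it has only a bound in PD and in 2i. On PD arrays it was detected on 3 of 3 B20 and 0 of 3 B18 arrays, at a measured mean of 5.37 against 4.50, and the bound put B20 at least 1.13-fold higher. In 2i, detected on 1 of 2 B20 arrays, the measured means were 5.15 and 4.38 and the bound gives no fold. Cox7b, a small subunit of complex IV, was 0.34 higher (adjusted p = 0.0154), at 6.97 to 7.65 in B18 and 7.35 to 8.05 in B20, with overlap. Without the second B20 2i array Cox7b did not pass (adjusted p = 0.0584). Ndufs4, an accessory subunit of complex I, was 0.27 higher (adjusted p = 0.0204), Ndufa5 0.23 higher (adjusted p = 0.00938) and Ndufa2 0.18 higher (adjusted p = 0.0459). The Ndufs4 call was lost without the first B18 2i array (adjusted p = 0.0547) or the second B20 2i array (adjusted p = 0.0792), and that of Ndufa2 without any 1 of 11 arrays. Of the subunits with isoforms, Atp5g2 was 0.21 lower in B20 (adjusted p = 0.00641) and Atp5g3, which encodes the same ring protein, changed by 0.04 (adjusted p = 0.569). Sdhd was lower by 0.24 over the 3 media (adjusted p = 0.00858), but B20 minus B18 was 0.03 in R2i (adjusted p = 0.857), -0.25 in PD (adjusted p = 0.0962) and -0.49 in 2i (adjusted p = 0.0319). Sdhc was lower by 0.14 (adjusted p = 0.0477), a call lost under 18 of 24 alternatives, among them the omission of the third B20 PD array (adjusted p = 0.0597). Sdhb changed by -0.17 (adjusted p = 0.12), while its second probe passed at -0.25 (adjusted p = 0.00468 over all probes).

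**Figure D4:**
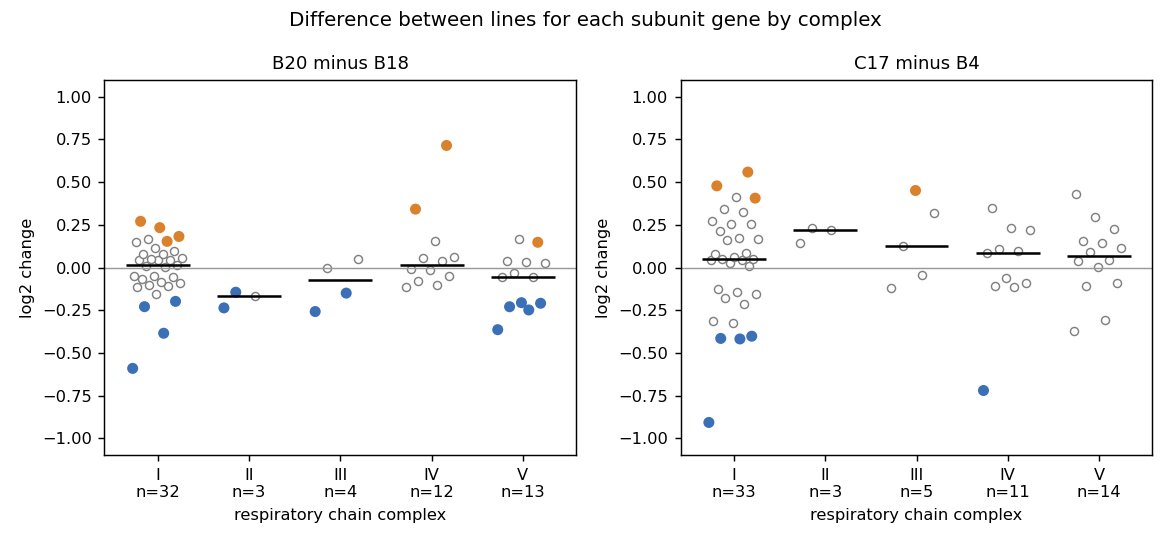
Log2 difference between lines for each measured subunit gene (vertical axis) by complex (horizontal axis, number of genes below), B20 minus B18 at left and C17 minus B4 at right. Filled points passed at an adjusted p below 0.05 (orange higher, blue lower), open points did not, and bars are medians; in B20 minus B18 5 genes of complex V are lower, and in C17 minus B4 the lowest point is Ndufa1 at -0.91.

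Within each medium 3 genes were higher and 6 lower in R2i (20.3% of all genes called), 2 higher and none lower in PD (15.4%), and 1 higher and 4 lower in 2i (4.84%). Cox6a2 was among the higher genes in every medium and was the only one in 2i. It was not detected on any B18 PD or 2i array, so its calls in those media rest on an undetected group. No oxidative phosphorylation gene passed the test that a medium change differs between the lines. For R2i minus PD the limma count was 0 of 69 against 4.27% of all genes, with 7 at an unadjusted p below 0.05. For R2i minus 2i it was 0 against 1.36%, with 6, and for 2i minus PD 0 against 1.72%, with 6. All counts at an unadjusted p in this text stand without the share of all genes at that level and are not read as an excess. Without the third B20 PD array 1 gene passed for R2i minus PD, Ndufa6 of complex I (-0.50, adjusted p = 0.0357, against -0.41 and 0.129 with it), and 1 for 2i minus PD, Ndufb10 as above. These values were named after they were seen.

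B4 and C17 gave 1 array per line and medium, so only the lines replicate a medium. R2i against PD called 0 of 72 genes in limma (0 at an unadjusted p below 0.05), against 0.138% of all genes, with 52 genes below 0 and a median of -0.05. R2i against SB called 0 (2 at an unadjusted p below 0.05), against 2.16%. PD against SB called 1, Cox7a1, against 5.12% (2.71% higher and 2.41% lower). There 57 of 72 genes were above 0, with a median of 0.08 against -0.01 for all genes, and all 11 genes of complex IV were above 0 with a median of 0.11. As for every count of signs here, the genes were read on the same arrays, so their signs are not independent. The shares of all genes above and below 0 are not given. Marker sums moved between PD and SB as well. The 9 stem cell markers summed to 37557 to 41397 in PD and 29695 to 32496 in SB, and Nes, the 1 of 5 neural markers that passed, was at 41.4 to 43.5 and 28.4 to 29.9, neither with overlap. The 3 of 10 fibroblast markers that passed (Acta2, Thy1 and Vim) summed to 412 to 727 and 191 to 475, the 3 of 9 primitive endoderm markers (Col4a1, Lama1 and Sox7) to 361 to 435 and 352 to 538, and the 4 of 8 trophoblast markers (Gata3, Krt18, Krt8 and Tfap2c) to 2836 to 3447 and 3281 to 5023, all with overlap. Their part in the shift was not tested.

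Cox7a1 was the only subunit gene to pass in a medium comparison of these lines. In B4 its log2 signal was 9.32 in R2i, 9.17 in PD and 8.45 in SB, and in C17 it was 9.30, 10.02 and 8.66. Both SB arrays lay below the other 4. PD was 1.04 ± 0.20 above SB (2.05-fold, adjusted p = 0.0152), and R2i was 0.75 above SB, which did not pass (adjusted p = 0.0888). The PD minus SB call was lost without the C17 PD array (0.66, adjusted p = 0.231), without the C17 SB array (0.94, adjusted p = 0.0632) and without the detection filter (adjusted p = 0.207). Cox7a2, the other isoform, changed by 0.24 (adjusted p = 0.519), and Uqcrh was at 12.80, 12.77 and 12.70 in B4 and 12.98, 13.23 and 13.02 in C17.

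The BALB/c line C17 differed from the C57BL/6 line B4 in 10 of 72 genes, 5 higher and 5 lower, or 13.9%, against 31.6% of all genes (15% higher and 16.6% lower). The arrays of a line, each in another medium, served as its replicates in this test. Line and array position cannot be told apart in it. The median of the 72 genes was 0.09 against -0.01 for all genes. Of the 72, 50 were above 0, and the share of all genes above 0 is not given. Of the 10 genes 7 belonged to complex I, 4 lower and 3 higher. The count was 4 without either line's PD array and 15 without either line's R2i array.

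Ndufa1, an accessory subunit of complex I needed for its assembly, was at 12.45, 12.51 and 12.30 in B4 and 11.46, 11.53 and 11.55 in C17 (R2i, PD and SB). All C17 arrays were lower, by 0.91 ± 0.12 on the log2 scale (1.88-fold, adjusted p = 0.000668). Cox6b2, the testis isoform of subunit 6b, was at 9.61, 9.60 and 9.51 in B4 and 8.79, 8.90 and 8.87 in C17. It was 0.72 ± 0.11 lower in C17 (1.65-fold, adjusted p = 0.00186), while Cox6b1 changed by -0.06 (adjusted p = 0.72). Ndufb11 and Ndufa10 were each lower by 0.42 (adjusted p = 0.0221 and 0.0416) and Ndufa13 by 0.40 (adjusted p = 0.0292). Leaving out either line's array of a medium gives the same C17 minus B4 result, so the omissions in such a pair are not separate checks. The Ndufb11 call was lost without background correction (-0.19, adjusted p = 0.0578) and without either PD array (adjusted p = 0.173). The calls of Ndufa10 and Ndufa13 were lost without the detection filter and without any 1 of the 4 PD and SB arrays, and Ndufa10 changed by -0.24 without either SB array (adjusted p = 0.232).

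Ndufb8, another complex I subunit, was at 12.42, 12.48 and 12.40 in B4 and 12.85, 13.13 and 13.00 in C17, or 0.56 ± 0.12 higher in C17 (adjusted p = 0.00616). A second, dimmer probe of Ndufb8 gave the opposite sign, -0.47, and the probes passed over all probes at 0.00697 and 0.0148, so the direction of this gene depends on the probe. Cox4nb was 0.56 higher in C17 (adjusted p = 0.00793), with both probes alike at 0.56 and 0.53. Ndufa7 was 0.48 higher (adjusted p = 0.0167), Uqcrc2 0.45 (adjusted p = 0.0191) and Ndufs4 0.41 (adjusted p = 0.026), and these 3 calls too were lost without the detection filter and without any 1 of the 4 PD and SB arrays. The 4 probes of Ndufs4 gave 0.31 to 0.44. Complex II genes were above 0 in all 3 cases, with a median of 0.22, and none passed: Sdhb 0.15 (adjusted p = 0.351), Sdhc 0.23 (adjusted p = 0.147) and Sdhd 0.22 (adjusted p = 0.199).

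**Figure D5:**
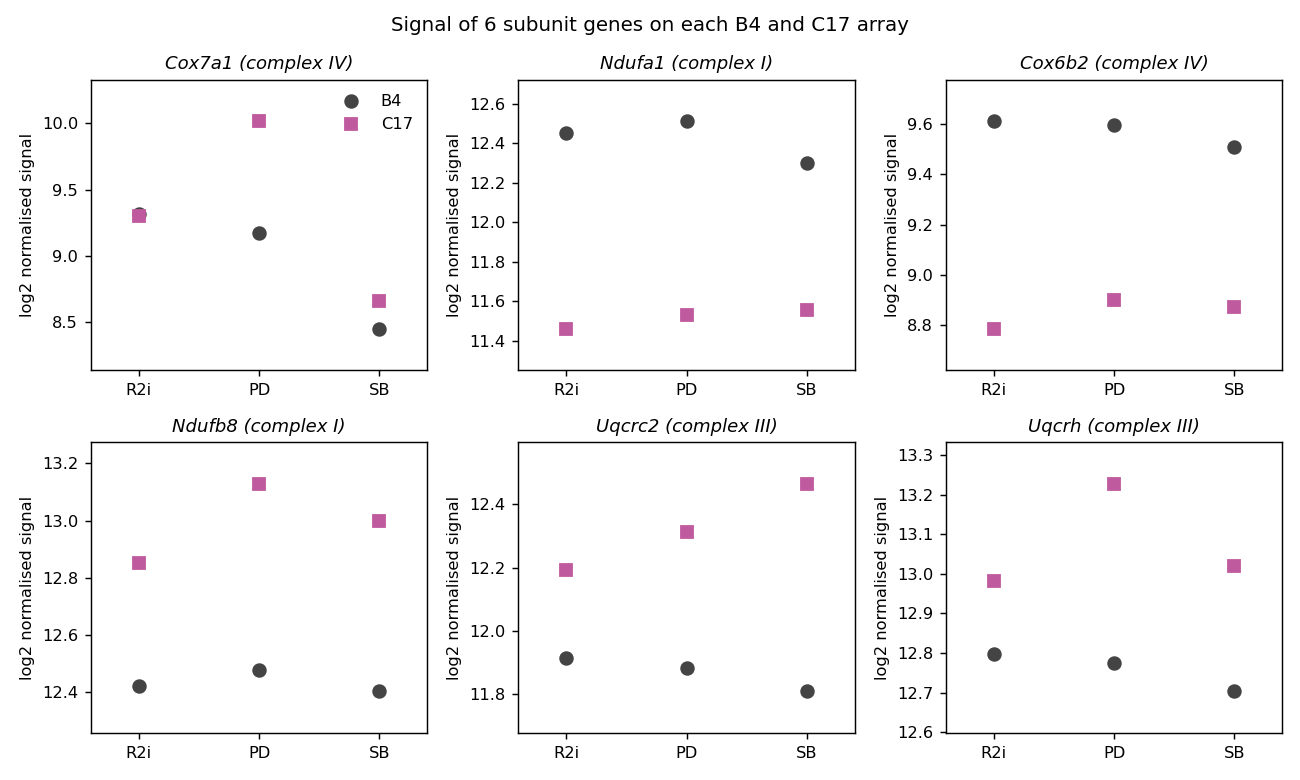
Log2 normalised signal (vertical axis, its own range in each panel) of 6 genes on the 6 B4 (circles) and C17 (squares) arrays, by medium, with 1 array per point. Cox7a1 is lowest in SB in both lines, Ndufa1 and Cox6b2 are lower in C17 in every medium, and Ndufb8, Uqcrc2 and Uqcrh are higher in C17 in every medium.

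Genes that feed or build the complexes were read beside them, and their counts stand against shares of all genes called of 18.8% in R2i minus PD, 27.6% in R2i minus 2i, 23.6% in 2i minus PD, 33% in B20 minus B18 and 31.6% in C17 minus B4. Of 19 measured genes of pyruvate entry and the tricarboxylic acid cycle, 6 were higher and none lower in 2i than in PD (31.6%, against 23.6% of all genes), Ogdh (0.51), Idh3a (0.41) and Suclg2 (0.34) most. In R2i against PD 3 were higher, Suclg2 most (0.61), and 3 lower (31.6% in all, against 18.8%). In R2i against 2i 1 was higher and 3 lower (21.1%, against 27.6%), Idh3a most (-0.58). Pdk1, the kinase that turns off pyruvate dehydrogenase, was the only one of the 19 to pass in PD against SB (-1.11, with 5.12% of all genes called) and in R2i against SB (-1.06, with 2.16%). C17 against B4 had 4 higher and 3 lower (36.8%, against 31.6%), with citrate synthase (Cs) at -1.18 and Idh3g at -0.97.

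Among 12 measured genes for cytochrome c and electron or adenine nucleotide carriers, 3 were higher in R2i than in PD (Etfb 0.31, Gpd2 0.26 and Coq9 0.24) and none lower (25% against 18.8% of all genes). R2i against 2i had 1 higher and 1 lower (16.7%, against 27.6%), and 2i against PD 1 higher (8.33%, against 23.6%). Of 20 assembly factors outside the name rule, 4 were higher in R2i than in PD, Tmem70 of ATP synthase most (0.42), and Sdhaf1 of complex II was lower (-0.24), which is 25% against 18.8%. Bcs1l, which inserts the Rieske protein into complex III, was lower in R2i than in 2i (-0.34) and higher in 2i than in PD (0.32). It was among 4 of the 20 called in R2i against 2i (20%, against 27.6%) and 2 called in 2i against PD (10%, against 23.6%). Of 16 regulators of mitochondrial genes and DNA none passed in R2i against PD (limma, 1 at an unadjusted p below 0.05), against 18.8% of all genes. In R2i against 2i Nrf1 (0.40) and Twnk (0.32) were among 3 higher, and Esrra (-0.31) was among 2 lower, or 31.3% against 27.6%.

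Of 17 genes of mitochondrial import and structure 1 passed in R2i against PD (5.88%, against 18.8% of all genes), 2 in R2i against 2i (11.8%, against 27.6%) and 1 in 2i against PD (Timm50, 0.32; 5.88% against 23.6%). Of 71 mitochondrial ribosome genes 3, 10 and 5 passed (4.23%, 14.1% and 7.04%), with Mrpl15 at -0.57 and Mrps6 at -0.48 in R2i against PD. B20 against B18 had 2 higher and 5 lower import genes (41.2%, against 33% of all genes; Hspe1 0.41, Vdac1 -0.40) and 15 higher and 9 lower ribosome genes (33.8%), a share near that of all genes. In C17 against B4 18 of the ribosome genes were higher, Mrps7 (0.76) and Mrpl48 (0.73) most, and 2 were lower (28.2% in all, against 31.6% of all genes, of which 15% were higher and 16.6% lower).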

How the data were processed

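The deposited Illumina probe profiles give signal intensity and a detection p-value per probe, and the authors also deposited normalised log2 values. GenomeStudio and limma, with no version, stand in the submitters' processing notes. Intensities were background-corrected and quantile normalised with neqc (offset 16) of limma 3.58.1 in R 4.3.3, separately for the sets of 16 and 6 arrays. A probe needed a detection p below 0.01 on at least 2 arrays, and each gene was tested by its probe of highest mean (9194 and 10903 genes). B18 and B20 were fitted with 1 mean per line and medium (10 residual degrees of freedom), and B4 and C17 with line and medium as additive terms (2). Values are on the log2 scale with moderated standard errors. P-values are from eBayes with Benjamini-Hochberg adjustment over all genes tested, called below 0.05, and the test was run on simulated data first. The labels do not state that replicate arrays were independent cultures, so p-values measure the spread between arrays, whose number limits the precision.

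A gene not detected in a group was bounded by the lowest detected signal of each array there, and such a fold is written as at least. Replicate numbers did not pair the samples: same-numbered arrays of a line correlated between -0.118 and 0.129 in their deviations, over 0.1 in 2 of 14 pairs. Alternatives were the background correction, scaling, the authors' values, the detection filter, single probes, the variance prior, a replicate block and each array left out.

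Members and lists were chosen with earlier results of these data known. Named genes are the 5 largest rises and falls that passed in each comparison, the Sdh genes, subunits with isoforms, genes detected on part of the arrays, and up to 3 called genes of each other list. Symbols were updated through RefSeq (GRCm38.p6), where 93 of 95 and 104 of 119 member probes matched.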

Additional observations from a re-analysis of the deposited data

How the results depend on the processing

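The counts of oxidative phosphorylation genes that passed moved by more than 1.5 times, or to or from 0, under the alternatives named here and under some omissions of 1 array. Without background correction 6 passed in R2i minus PD (against 3) and 19 in C17 minus B4 (against 10). With median scaling 9 passed in 2i minus PD (7 higher and 2 lower, against 15). B20 minus B18, whose total moved by less than 1.5 times, then split into 10 higher and 8 lower. Without a detection filter 0 passed in PD minus SB (against 1, Cox7a1, with limma) and 5 in C17 minus B4. With a trended, robust prior 1 passed in R2i minus SB (against 0) and 17 in C17 minus B4. The cause was not tested.

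Leaving out single arrays gave 3 to 5 genes for R2i minus PD, 10 to 16 for R2i minus 2i, 9 to 16 for 2i minus PD and 12 to 22 for B20 minus B18. The 5 came without the third B20 R2i array, and the 12 without the second B20 2i array. The 9 came without the second B18 PD, either B18 2i or the first B20 2i array. Differences between lines stayed at 0 to 1, with 1 each for R2i minus PD and 2i minus PD without the third B20 PD array, and 0 to 0 for R2i minus 2i. In B4 and C17 the ranges were 0 to 0 for R2i minus PD, 0 to 1 for R2i minus SB (1 without either PD array), 0 to 1 for PD minus SB and 4 to 15 for C17 minus B4, where a lone array of a medium is assumed to vary like the others.

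No called gene changed sign under any alternative when followed by the same probe, but over single probes the second probe of Ndufb8 passed with the opposite sign in C17 minus B4 (-0.47, against 0.56). Of 62 single-gene calls 14 were lost with median scaling, 11 without the filter, 6 over single probes, 2 without background correction and 2 with the authors' values, and of 882 omissions of 1 array 181 lost a call. Among these omissions, those of either line's array of a medium give the same result in C17 minus B4. The replicate block, whose numbers do not pair the B18 and B20 arrays, gave 3, 12, 14 and 17 genes for R2i minus PD, R2i minus 2i, 2i minus PD and B20 minus B18. Cox6a2 aside, Uqcrh, Cox7a2, Cox6b1, Sdhc, Cox4nb, Atp5sl and Atp5o passed in R2i minus 2i under every alternative run. In B20 minus B18 Ndufb10, Ndufb2, Atp5d, Uqcrc1, Atp5h, Atp5g2, Ndufc2, Ndufa5 and Sdhd did. This holds for the probe of highest mean of each gene. The second Ndufa5 probe did not pass in B20 minus B18 (0.21, adjusted p = 0.118 over all probes). Signals near background limit Cox6a2 and Ndufab1.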

Other observations

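Probes of a gene did not always move together. In 2i minus PD the brighter Atp5j probe, of a peripheral stalk subunit of ATP synthase, changed by 0.10 and the dimmer by -0.35, and in R2i minus 2i by -0.05 and 0.41. In C17 minus B4 the 3 probes of Atp5o gave 0.09, 0.36 and 0.58, and those of Atp5l, a membrane subunit of ATP synthase, 0.22 and 0.52. In B20 minus B18 Cox6a1, the widely expressed isoform of subunit 6a, gave -0.01 and -0.21 (adjusted p = 0.0232 over all probes for the second). The 4 Ndufs4 probes gave 0.27, 0.10, 0.09 and 0.25 there.

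Ndufb10, the gene with the largest fall in B20 against B18, had changes of -0.13 and -0.15 from its probes in C17 against B4, neither of which passed (adjusted p = 0.441 for the brighter).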
